A study of Homo sapiens with 8 samples.

Results

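The genes described here encode parts of the chemical synapse, together with the transcriptional repressor REST and its corepressor RCOR1 (also called CoREST). They were taken by symbol from a list of 41 genes, and 37 of them were in the table of 18406 genes. SHANK2, GRIN1, NRXN3 and CPLX2 were not among its symbols and have no RNA values here. The RNA of the 37 genes was measured in 92.1, an established line of human uveal melanoma cells, in 4 groups of 2 libraries each. The groups were DMSO vehicle, trametinib at 10 nM, panobinostat at 10 nM, and the drugs together, all for 24 h. Trametinib is an inhibitor of the kinases MEK1 and MEK2. Panobinostat inhibits histone deacetylases, although its label also calls it a MEK inhibitor, and the drug name was followed. The combination label states 10 nM once, so that each drug was present at 10 nM is an assumption. All groups were grown in RPMI medium with fetal bovine serum. No source says that the 2 libraries of a group came from separate cultures, and the spread that p-values are set against may be technical only.

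Neurons release transmitter when vesicles carrying proteins such as synapsins, synaptophysin and synaptotagmins fuse with the membrane at the active zone. Fusion is driven by SNARE proteins, among them SNAP25, syntaxin 1A and VAMP2. On the receiving side, scaffolds of the SHANK, HOMER and PSD-95 families hold glutamate receptors in place, and neurexins and neuroligins bridge the cleft. REST is a zinc finger protein that binds a long DNA element called RE1 at many of these genes in cells that are not neurons. It represses them there through corepressor complexes built on RCOR1 and SIN3, which contain histone deacetylases. Cells of the melanocyte lineage, from which uveal melanoma arises, share a neural crest origin with peripheral neurons and glia.

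The RE1 element was searched in the promoters of these genes to show where REST's recognition sequence stands next to a start site. The consensus used was ttcagcacc, 2 free letters, ggacag, 1 free letter and gcc, together 21 letters of which 18 are fixed, on both strands of RefSeq promoter windows (GRCh38.p14) running from 250 bases before to 50 bases after each start. Windows were found for 34 of the 41 listed genes, of which 32 were in the table of values. CPLX2 and NRXN3 had a window but no values. All 18 fixed letters were present in SYN1 and GRIA2, and in 1 other of the 27305 genes with a window (3 genes, 0.011% of all). The 250 bases before the start of SYN1 (chrX:47619858-47620107, minus strand) and GRIA2 (chr4:157220369-157220618, plus strand, 1 of its 3 starts) are given 5′ to 3′ with the RE1 match in capitals. The match reads along the gene in SYN1 and on the opposite strand in GRIA2.

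SYN1: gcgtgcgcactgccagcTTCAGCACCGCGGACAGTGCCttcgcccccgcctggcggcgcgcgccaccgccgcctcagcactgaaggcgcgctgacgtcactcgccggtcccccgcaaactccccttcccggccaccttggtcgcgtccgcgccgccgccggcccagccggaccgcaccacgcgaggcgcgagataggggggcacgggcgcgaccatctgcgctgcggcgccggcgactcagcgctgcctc
GRIA2: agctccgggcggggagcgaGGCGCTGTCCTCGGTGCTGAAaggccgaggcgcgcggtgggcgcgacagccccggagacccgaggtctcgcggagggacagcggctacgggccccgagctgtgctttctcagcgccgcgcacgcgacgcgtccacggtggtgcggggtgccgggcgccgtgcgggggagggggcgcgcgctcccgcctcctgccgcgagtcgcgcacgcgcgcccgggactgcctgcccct

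The promoters of SLC17A7 (chr19:49441528-49441777, minus strand) and NOVA2 (chr19:45973866-45974115, minus strand) are shown for contrast, because both genes had large differences between the groups and neither window held a close RE1 match.

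SLC17A7: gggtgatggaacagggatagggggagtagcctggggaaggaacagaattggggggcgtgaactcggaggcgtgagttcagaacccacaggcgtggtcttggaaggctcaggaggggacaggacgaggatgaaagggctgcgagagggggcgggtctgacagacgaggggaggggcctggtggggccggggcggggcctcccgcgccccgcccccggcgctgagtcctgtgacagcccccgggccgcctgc
NOVA2: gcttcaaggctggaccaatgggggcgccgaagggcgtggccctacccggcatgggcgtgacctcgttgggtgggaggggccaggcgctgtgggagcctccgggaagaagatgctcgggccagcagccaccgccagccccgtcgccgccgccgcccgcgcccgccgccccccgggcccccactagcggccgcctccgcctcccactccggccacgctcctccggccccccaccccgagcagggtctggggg

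The best stretch in the SLC17A7 window matched 13 of the 18 letters, and that in the NOVA2 window matched 11. The 32 listed genes with a window other than SYN1 and GRIA2, REST and RCOR1 among them, had best matches of 10 to 13 letters, and 5.95% of all genes reached 13 or more. A low match says only that these letters are not in this window, since RE1 elements also lie in introns and far from starts.

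**Figure D1:**
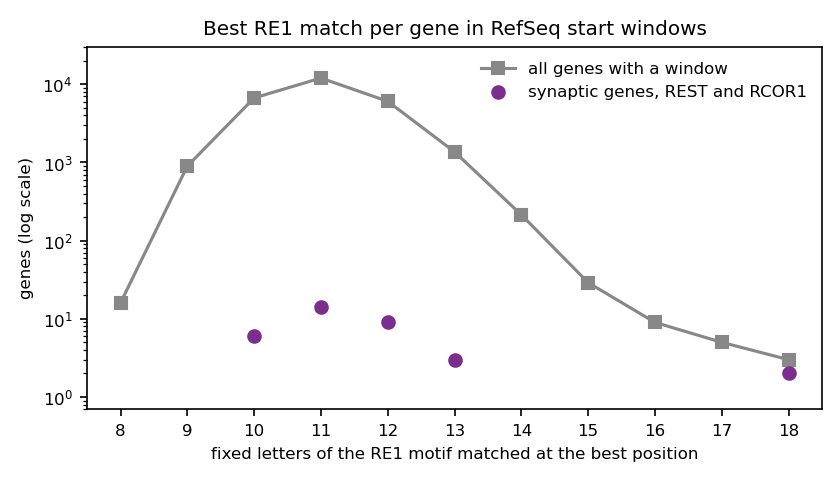
Best match of each gene's promoter windows to the 18 fixed letters of the RE1 consensus (horizontal axis, matched letters) against the number of genes with that best match (vertical axis, log scale), squares joined by a line for all 27305 genes with a window and circles for the listed genes. SYN1 and GRIA2 stand at 18 letters, and the other 32 listed genes with a window lie between 10 and 13.

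The values are reads per gene divided by the library's size factor and are called normalised read counts here. The libraries held 6897784 to 16861001 reads, and 1 read was worth between 0.602 and 1.52 normalised read counts. Trametinib replicate 2 stood apart: it had 5362 genes at 0 against 2222 to 3743 in the other libraries, and 2.10% of its detected genes had 1 to 5 reads, against 6.74% to 13.3% elsewhere. Across genes, the log2 values of the trametinib libraries correlated at 0.897, against 0.974 to 0.991 for the replicates of the other groups. Calls that did not pass without this library are therefore given with and without it. Groups of 2 libraries that do not overlap were common: the share of all 13320 genes tested was 74.5% for trametinib against vehicle, 77.2% for panobinostat and 83.6% for the combination. It was 61.8% for the combination against trametinib and 68.6% against panobinostat. Melanocyte lineage markers were abundant in all libraries, with a summed value from 102460 to 177729 over 8 genes. The neuron list, of which 8 of 10 genes were in the table and SYT1 and SNAP25 are also described here, summed to 488 and 543 with vehicle, 1237 and 1334 with trametinib, 1767 and 1827 with panobinostat alone, and 2360 and 2419 with both drugs. Of that list, NEUROD1 never exceeded 1.20, and the sum moved mostly through a single gene with each drug. MAP2, a dendritic microtubule protein, was at 119 and 101 with vehicle, 131 and 58.3 with trametinib, and 1387 and 1330 with panobinostat. TUBB3, a neuronal tubulin, was at 391 and 371, then 1162 and 1150, and 349 and 447 in the same groups. Glia and Schwann markers, 6 of 6 in the table, summed to 2784 to 2901 with vehicle or panobinostat, 9225 and 10069 with trametinib, and 4541 and 4956 with both, and GFAP and AQP4 did not exceed 2.01. Fibroblast markers, 6 of 6 in the table, summed to 403 and 417 with vehicle and were higher in all treated libraries: 810 and 1095 with trametinib, 1016 and 1015 under panobinostat, and 1271 and 1307 with both, with THY1 at 0 and COL1A1 and LUM the most abundant. Endothelial and leukocyte markers summed to at most 4.08 and 11.7. The part of such cells in the results was not tested, and in bulk RNA more cells of a type and more RNA per cell cannot be told apart.

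Of the 37 genes, 11 were near 0 in vehicle, meaning under 5 in both vehicle libraries: SYN2, SYP, SYT1, SYT4, SNAP25, RIMS1, SHANK1, GRIN2A, GRIA1, GRIA2 and GRIA3. Just above that limit were CAMK2B, at 5.42 and 2.38, SYN1, at 0.602 and 5.54, and SYT11, at 2.41 and 5.54. Of the 11, RIMS1 was the only gene with a mean of at least 10 over all libraries and so the only one tested. The other 10 are given by their values and, where reads allow, by ratios of reads with 95% intervals, which cover counting error only.

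SYP encodes synaptophysin, an abundant vesicle membrane protein. It stood at 1.81 and 2.38 with vehicle, 4.01 and 0 with trametinib, 9.17 and 12.1 under panobinostat, and 8.19 and 12.2 with both drugs. All 4 panobinostat-treated libraries lay above the other 4, with 5.19 times the vehicle level under panobinostat (95% interval 2.03 to 15.7) and 4.84 times under the combination (1.77 to 15.2). SYT1 encodes the calcium sensor of fast release. Its values were 2.41 and 1.58 with vehicle, 12.0 and 0 with trametinib, 9.17 and 13.1 with panobinostat alone, and 23.4 and 12.2 with both, so that the trametinib libraries fell on either side of the vehicle pair. The ratio to vehicle was 5.44 (2.14 to 16.4) with panobinostat and 9.03 (3.67 to 26.7) with the combination.

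SNAP25, a membrane SNARE, was at 1.81 and 1.58 with vehicle, 0 and 0 with trametinib, 3.06 and 7.06 under panobinostat, and 9.37 and 10.6 with both drugs. The combination was 5.80 times vehicle (2.01 to 20.4), while the interval for panobinostat alone, 0.923 to 11.1 around 2.97, included no change. SHANK1, a postsynaptic scaffold, had 1 read in the vehicle libraries and none with trametinib, and its values were 6.12 and 6.05 with panobinostat and 22.2 and 1.52 with both. The combination libraries thus differed widely from each other, and the ratio of 38.7 carried an interval from 6.19 to 1604. SYN2, the second synapsin, was listed at 0 except for 5.04 in panobinostat replicate 2 and 1.52 in combination replicate 2. SYT4 was at 0 in all 8 libraries.

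Of the 5 glutamate receptor genes in the table, 4 were near 0 in vehicle. GRIA2, the AMPA receptor subunit that limits calcium entry and 1 of the 2 listed genes with a full RE1 match, was at 0 in the vehicle and trametinib libraries, at 3.06 and 13.1 with panobinostat, and at 2.34 and 4.56 with both drugs. Against a floor of 3 reads per vehicle library, the panobinostat mean was 3.87 times the floor. That fold rests on the 13 reads of replicate 2, since replicate 1 had only 3 reads. The combination, with 2 and 3 reads, did not exceed 3 reads in either library and is given no fold. GRIN2A, an NMDA receptor subunit, was at 0 with vehicle, 3.01 and 0 with trametinib, 1.02 and 0 with panobinostat alone, and 4.68 and 16.7 with both. This put the combination mean at 5.12 times the vehicle floor. Both folds leave out the counting error of the treated libraries. GRIA1 was detected only in combination replicate 2, at 4.56, and GRIA3 only in trametinib replicate 1, at 1.00, and in the combination libraries, at 4.68 and 1.52. These receptor values rest on 13 reads or fewer per library. With no filter on low values, limma called GRIA2 with panobinostat (adjusted p = 0.0269) and GRIN2A with the combination (adjusted p = 0.0187), whereas edgeR's quasi-likelihood test on the same genes gave adjusted p-values of 0.125 and 0.081. Limma also called GRIA3 (adjusted p = 0.0491, edgeR 0.289) and SNAP25 (adjusted p = 0.0480, edgeR 0.404) with the combination in that setting.

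**Figure D2:**
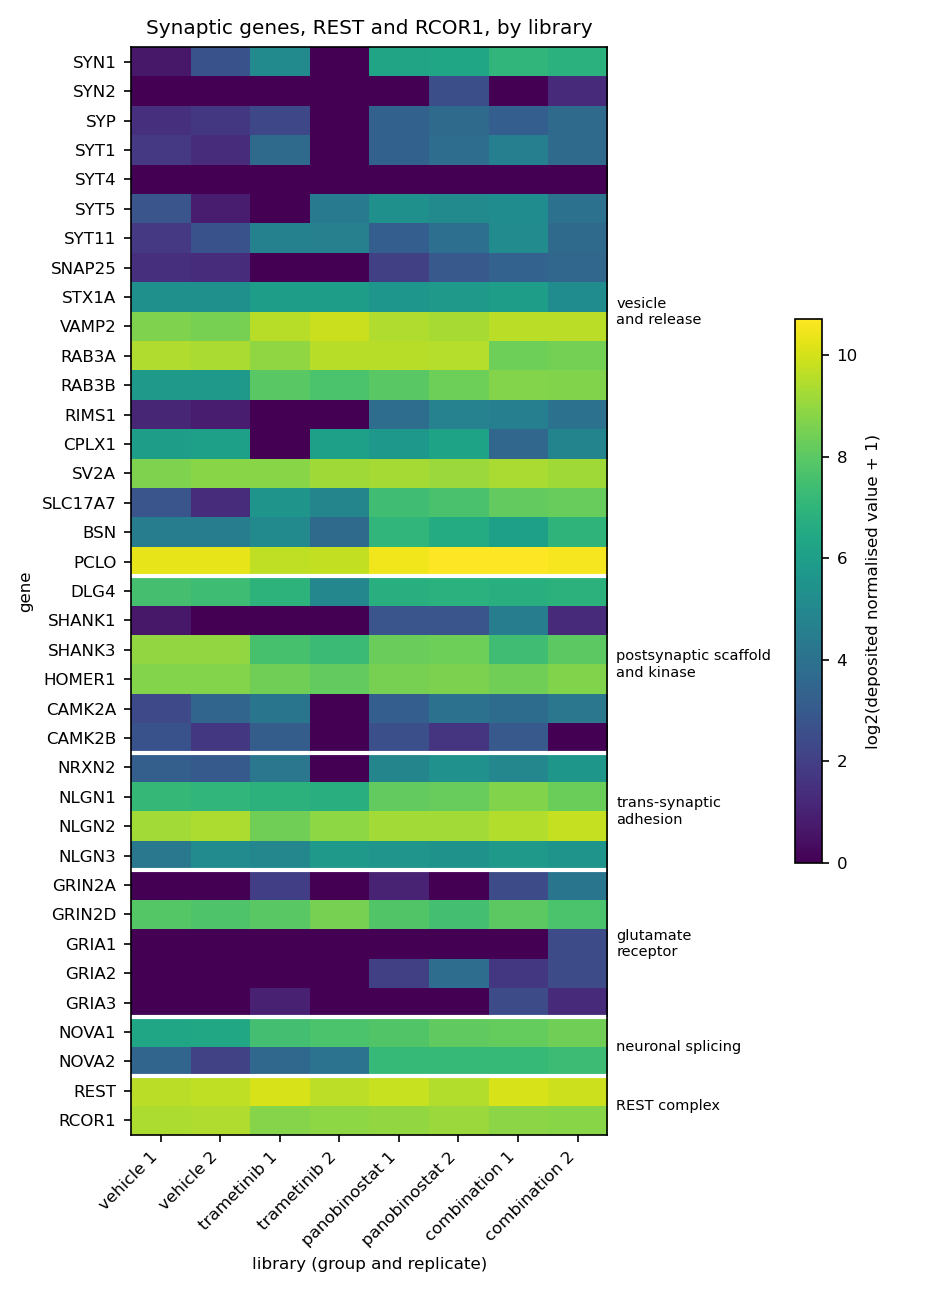
Normalised read count of the listed genes (vertical axis, grouped by role) in each of the 8 libraries (horizontal axis), coloured as log2(value + 1). The near-0 genes were low in both vehicle libraries, and SYP reached 8.19 to 12.2 in the 4 libraries with panobinostat.

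REST itself was detected in every library and passed in none of the 6 comparisons. It stood at 785 and 837 with vehicle, 1059 and 802 with trametinib, 898 and 711 under panobinostat, and 1067 and 943 with both drugs. The vehicle pair lay within the range of the panobinostat pair and overlapped that of the trametinib pair, while both combination libraries lay above both vehicle libraries. By limma, the log2 difference from vehicle was 0.19 ± 0.15 (SE; adjusted p = 0.340) with trametinib, -0.02 ± 0.15 (adjusted p = 0.938) with panobinostat and 0.31 ± 0.15 (adjusted p = 0.127) with the combination. The 95% interval for panobinostat ran from -0.37 to 0.33, and that for the combination from -0.04 to 0.65. Reads of REST can be shared with NOA1, whose exons overlap it on the opposite strand in the GENCODE annotation, and the labels and notes do not say if reads were counted by strand.

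RCOR1, the scaffold that joins REST to histone deacetylases and the demethylase KDM1A, fell with each treatment. It was at 681 and 695 with vehicle, 437 and 470.2 with trametinib, 511 and 546 with panobinostat alone, and 468 and 443 with both drugs, and none of the treated libraries reached the vehicle pair. The log2 change was -0.60 ± 0.11 (limma adjusted p = 0.00151) with trametinib, -0.38 ± 0.11 (adjusted p = 0.0276) with panobinostat and -0.59 ± 0.11 (adjusted p = 0.00159) with the combination. The panobinostat call did not pass without either vehicle library (-0.40 and -0.37) or either panobinostat library (-0.33 and -0.43).

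**Figure D3:**
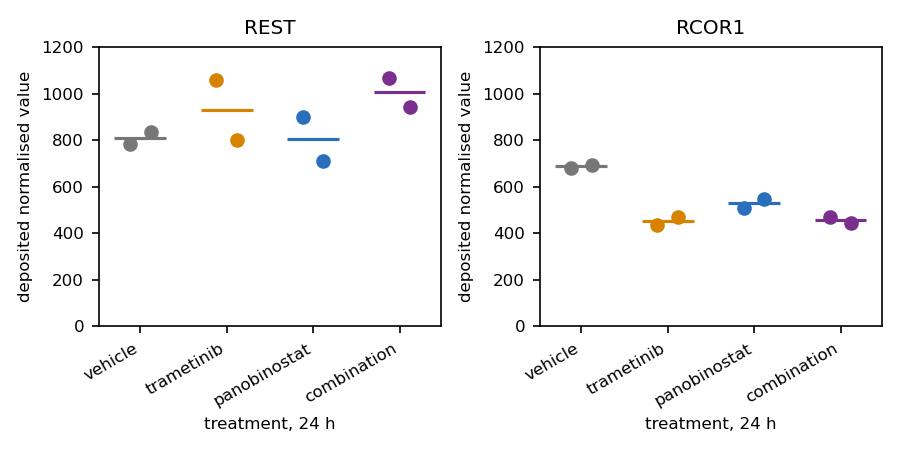
Normalised read count (vertical axis, from 0) of REST and RCOR1 in each of the 8 libraries, by treatment group (horizontal axis), points standing for libraries and lines for group means. REST ranged from 711 to 1067 with overlapping vehicle, trametinib and panobinostat groups, and RCOR1 was between 437 and 546 in the 6 treated libraries against 681 and 695 with vehicle.

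A gene was tested when its mean over the 8 libraries was at least 10, which held for 26 of the 37 genes. It passed when limma's adjusted p, on log2(value + 1) over all 13320 genes tested, was under 0.05. On that scale changes of low genes are understated, but a single library at 0 can enlarge a change: CPLX1 with trametinib was at -3.00 by limma and at -0.97 by edgeR. Of the 26, 8 had a vehicle mean under 10 (SYN1, SYT5, SYT11, RIMS1, SLC17A7, CAMK2A, NRXN2 and NOVA2) and reached the filter through their treated libraries, so a difference in them was partly built in. Between 2 and 2 libraries an exact permutation test cannot give a two-sided p below 0.333, so the calls depend on a spread estimated from the 4 groups together.

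With panobinostat, 9 of the 26 tested genes were higher than vehicle, 2 were lower and 15 did not pass, where 30.5% of all genes tested were called, 15.0% higher and 15.6% lower. The median log2 change of the 26 was 0.73 against 0.00 for all genes. Trametinib gave 5 higher, 6 lower and 15 not passing, where 51.0% of all genes were called (23.7% higher, 27.4% lower), and its medians were 0.04 and -0.07. With the combination 11 were higher, 3 lower and 12 did not pass, against 50.0% of all genes called (24.5% higher, 25.5% lower), and the medians were 0.99 and 0.03. With trametinib the shares called were near the background, so those counts are no result about these genes. With the combination the total called was near the background too, but more were higher and fewer lower than among all genes. That difference was not tested. Low genes as a whole moved mainly upward: of the 666 genes tested with a vehicle mean under 10, 16.4% were higher and none lower with panobinostat, 38% were higher with the combination, and 23.1% were higher and 2.1% lower with trametinib. Among the 8 listed genes of that level, 3 were higher with panobinostat, 4 with the combination and 2 with trametinib. All 3 comparisons share the 2 vehicle libraries. The libraries with panobinostat also form a separate set in the sample records. A batch difference therefore cannot be told apart from panobinostat in any comparison of libraries with it against libraries without it.

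**Figure D4:**
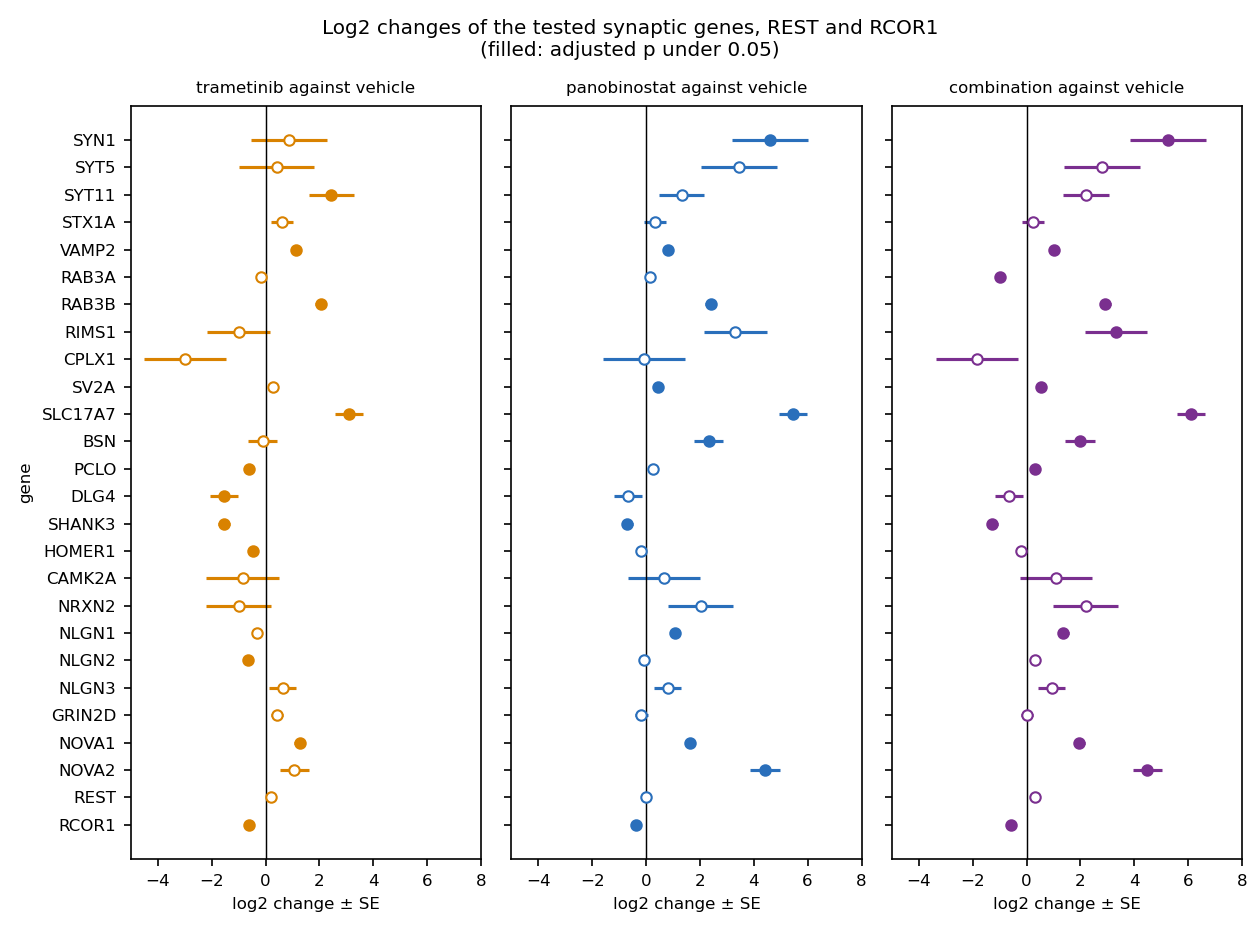
Log2 change against vehicle (horizontal axis; points, with the standard error from limma as bars) of the 26 tested genes (vertical axis) for trametinib, panobinostat and the combination, filled where the adjusted p was under 0.05. Changes span -1.54 for DLG4 and SHANK3 with trametinib to 6.10 for SLC17A7 with the combination among those that passed, and REST lies near 0 in all 3.

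Vesicle and release genes were the largest class. Of 13 tested, 6 rose with panobinostat and none fell, 8 rose and 1 fell with the combination, and 4 rose and 1 fell with trametinib. Over all genes tested 15.0%, 24.5% and 23.7% were higher in these comparisons, and the trametinib count is near that share. SLC17A7 encodes VGLUT1, which loads glutamate into vesicles. It was at 6.02 and 1.58 with vehicle, 45.1 and 28.1 with trametinib, 169 and 201 under panobinostat, and 281 and 301 with both drugs, a rise in every treated library. From summed reads this was 8.93 times vehicle with trametinib (95% counting interval 4.82 to 18.1), 45.1 times with panobinostat (25.5 to 88.1) and 70.6 times with the combination (40.0 to 138). In limma the log2 changes were 3.11 ± 0.51, 5.44 ± 0.51 and 6.10 ± 0.51 (adjusted p = 0.000795, 9.22e-05 and 1.14e-05). The sizes depend on the few vehicle reads: without vehicle replicate 1 the changes were 3.83, 6.16 and 6.82, and without vehicle replicate 2 they were 2.38, 4.72 and 5.38.

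SYN1, or synapsin I, tethers vesicles to the cytoskeleton and carries the full RE1 match shown above. It had 0.602 and 5.54 with vehicle, 34.1 and 0 with trametinib, 75.4 and 78.6 with panobinostat alone, and 131 and 114 with both. The panobinostat-treated libraries were all far above the vehicle pair, and the trametinib libraries split, with 34 reads in replicate 1 and none in replicate 2. SYN1 rose by 4.59 ± 1.40 on the log2 scale with panobinostat (adjusted p = 0.0343, limma) and by 5.25 ± 1.40 with the combination (adjusted p = 0.0115), and the ratios of reads were 28.2 (13.9 to 66.4) and 45.2 (22.5 to 106). The panobinostat call did not pass without either vehicle library (3.58 and 5.61), either panobinostat library (4.62 and 4.56) or either combination library (4.59 each). It also did not pass with a pseudocount of 0.5 (adjusted p = 0.0556) or without the filter (adjusted p = 0.0590). The combination call did not pass without vehicle replicate 1 (4.24), combination replicate 1 (5.15) or combination replicate 2 (5.35). Exons of SYN1 overlap those of ARAF on the opposite strand, so its reads may include some of ARAF.

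VAMP2, the vesicle SNARE, rose about 2-fold with each treatment. Vehicle libraries held 402 and 362, trametinib 753 and 931, panobinostat 691 and 639, and the combination 777 and 779, with no overlap between treated and vehicle libraries. Log2 changes were 1.13 ± 0.13, 0.80 ± 0.13 and 1.03 ± 0.13 (limma adjusted p = 6.35e-05, 0.00148 and 0.000123). Its partner on the plasma membrane, STX1A, ranged from 36.5 to 63.2 and passed in none of the comparisons. SV2A, a vesicle glycoprotein and the target of levetiracetam, was at 396 and 448 with vehicle, 449 and 584 with trametinib, 617 and 546 under panobinostat, and 649.7 and 583 with both. Its rise was small, 0.46 ± 0.15 with panobinostat (adjusted p = 0.0454) and 0.55 ± 0.15 with the combination (adjusted p = 0.0139). The first call did not pass without any 1 of the vehicle, panobinostat or combination libraries (0.37 to 0.55), with the replicate block (adjusted p = 0.0591) or without the filter, and the second did not without vehicle replicate 1 (0.46) or combination replicate 1 (0.47).

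RAB3A and RAB3B, paralogous GTPases on secretory vesicles, moved in opposite directions with the combination. RAB3B rose with each treatment, from 54.2 and 53.0 with vehicle to 248 and 205 with trametinib, 254 and 329 with panobinostat alone, and 421 and 409 with both. That was 4.22, 5.43 and 7.75 times the vehicle mean, or 2.05 ± 0.20, 2.41 ± 0.20 and 2.93 ± 0.20 on the log2 scale (limma adjusted p = 3.12e-05, 4.82e-05 and 3.58e-06). RAB3A was at 696 and 646 with vehicle, 484 and 746 with trametinib, 754 and 740.1 under panobinostat, and 324 and 353 with both drugs. It fell only where both drugs were present, by 0.99 ± 0.18 against vehicle (adjusted p = 0.00142), and did not pass with either drug alone.

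The 3 active zone scaffolds differed among themselves. BSN (bassoon) was at 22.3 and 21.4 with vehicle, 33.1 and 12.1 with trametinib, 132 and 96.8 with panobinostat alone, and 64.4 and 125 with both. It rose by 2.32 ± 0.55 with panobinostat (limma adjusted p = 0.0118) and by 1.99 ± 0.55 with the combination (adjusted p = 0.0138). The first call did not pass without either vehicle library (2.35 and 2.29) or either panobinostat library (2.10 and 2.54), and the second did not without either vehicle library (2.02 and 1.96) or combination replicate 2 (1.52). PCLO (piccolo), a large relative of bassoon, was already expressed with vehicle, at 1295 and 1292. It was at 831 and 855 with trametinib, 1453 and 1672 under panobinostat, and 1682 and 1505 with both. PCLO fell by 0.62 ± 0.09 with trametinib (adjusted p = 0.000474) and rose by 0.30 ± 0.09 with the combination (adjusted p = 0.0246), while panobinostat alone, at 0.27 ± 0.09, did not pass by limma (adjusted p = 0.0569). On recovered reads panobinostat alone passed with edgeR (adjusted p = 0.0490) and with DESeq2 (adjusted p = 0.0197). The rise with the combination did not pass without either vehicle library (0.30 each) or combination replicate 1 (0.22).

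RIMS1, which organises release sites and binds RAB3, was the near-0 gene that reached the filter. It had 1.20 and 0.792 with vehicle, 0 and 0 with trametinib, 13.3 and 26.2 with panobinostat alone, and 23.4 and 15.2 with both. All panobinostat-treated libraries were above all others. The ratio to the 3 vehicle reads was 19.3 (6.13 to 97.5) with panobinostat and 19.3 (6.02 to 99.1) with the combination. By limma the combination passed at 3.32 ± 1.17 (adjusted p = 0.0390) and panobinostat did not at 3.31 ± 1.17 (adjusted p = 0.0587), values that hardly differ. On recovered reads panobinostat passed with edgeR (adjusted p = 0.0255) and with DESeq2 (adjusted p = 0.00841). The combination call did not pass with a pseudocount of 0.5 (3.71), with the replicate number as a block (adjusted p = 0.0596), or without any 1 of the vehicle, panobinostat or combination libraries (3.03 to 3.62).

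Other release genes gave scattered values. SYT11, a synaptotagmin that does not bind calcium, was at 2.41 and 5.54 with vehicle, 25.1 and 24.1 with trametinib, 8.16 and 14.1 under panobinostat, and 35.1 and 12.2 with both. It rose with trametinib (2.44 ± 0.84, limma adjusted p = 0.0364), where both libraries lay well above vehicle. That call did not pass with the replicate block (adjusted p = 0.0521) or without either vehicle library (1.97 and 2.91) or either panobinostat library (2.44 each). SYT5 was at 6.02 and 0.792 with vehicle, 0 and 21.1 with trametinib, 40.8 and 34.3 with panobinostat alone, and 36.3 and 15.2 with both. It did not pass by limma (panobinostat 3.44 ± 1.41, adjusted p = 0.0958), although reads gave a ratio of 9.97 (5.26 to 20.8). The other tests on recovered reads differed: with panobinostat the adjusted p was 0.0915 by edgeR and 0.0159 by DESeq2. For the combination these values were 0.115 and 0.0356. CPLX1, which clamps the assembled SNARE complex, ranged from 0 in trametinib replicate 1 to 72.6 and passed in none.

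**Figure D5:**
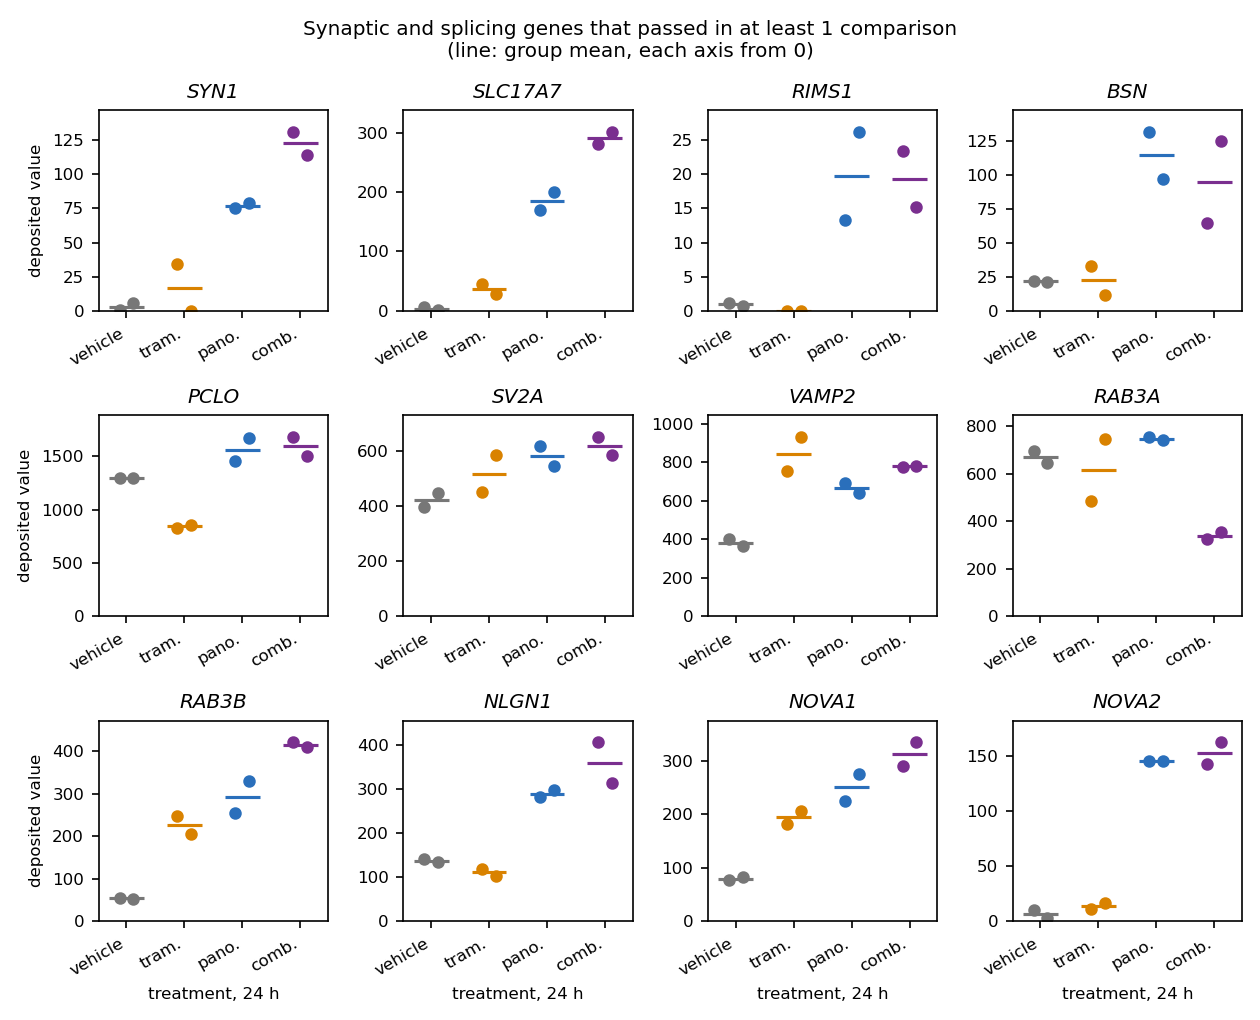
Normalised read count (vertical axes, from 0, each panel on its own scale) of 12 of the 18 listed genes that passed in at least 1 comparison, in each of the 8 libraries by treatment group (horizontal axis), points standing for libraries and lines for group means. SLC17A7 climbed from 6.02 and 1.58 with vehicle to 281 and 301 with both drugs, and RAB3A was lowest with both drugs, at 324 and 353.

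Postsynaptic scaffold genes were lower where they passed. Of 4 tested genes of this class, kinase included, none rose in any comparison with vehicle, 3 fell with trametinib and 1 fell with panobinostat and with the combination. Among all genes with a vehicle mean of at least 100, 34.6% were lower with trametinib, and 2 of the 3 falls did not pass without some single libraries. SHANK3, the scaffold altered in Phelan-McDermid syndrome, was at 510.4 and 511 with vehicle, 194 and 158 with trametinib, 307 and 325 under panobinostat, and 172 and 260.1 with both. None of the treated libraries reached the vehicle pair, and the log2 changes were -1.54 ± 0.21, -0.69 ± 0.21 and -1.27 ± 0.21 (limma adjusted p = 0.000242, 0.0338 and 0.000827). The fall with panobinostat did not pass without either vehicle library (-0.69 each) or either panobinostat library (-0.65 and -0.73).

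DLG4 encodes PSD-95, the central scaffold of excitatory synapses. It was at 187 and 166 with vehicle, 119 and 30.1 with trametinib, 108 and 115 with panobinostat alone, and 108 and 116 with both, so that trametinib replicate 2 was the lowest library by far. The fall with trametinib, -1.54 ± 0.52 (limma adjusted p = 0.0321), became -0.56 without trametinib replicate 2 and did not pass, and became -2.51 without replicate 1. It also did not pass with edgeR on recovered reads (-1.22, adjusted p = 0.0548), without the filter (-1.54), or without any 1 of the vehicle, panobinostat or combination libraries (-1.62 to -1.45). DLG4 exons overlap ACADVL on the opposite strand. HOMER1, which links receptors to SHANK proteins, was at 429 and 425 with vehicle, 332 and 283 with trametinib, 369 and 389 under panobinostat, and 331 and 414 with both. It fell by 0.48 ± 0.15 with trametinib (adjusted p = 0.0280), a call that did not pass without either vehicle library (-0.47 and -0.48) or trametinib replicate 2 (-0.36). The kinase genes CAMK2A and CAMK2B stayed between 0 and 18.3 in all libraries. CAMK2A passed in none, and CAMK2B had too low a mean to be tested.

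The adhesion genes were tested for 1 neurexin and 3 neuroligins. NLGN1, the neuroligin of excitatory synapses, was at 141 and 134 with vehicle, 117 and 103 with trametinib, 281 and 297 with panobinostat alone, and 406 and 313 with both. It rose by 1.07 ± 0.20 with panobinostat (limma adjusted p = 0.00351) and by 1.37 ± 0.20 with the combination (adjusted p = 0.000356), and the 4 libraries with panobinostat lay above the other 4. NLGN2, the neuroligin of inhibitory synapses, was at 607 and 665 with vehicle, 339 and 481 with trametinib, 598 and 598 under panobinostat, and 716 and 878 with both. It fell by 0.65 ± 0.17 with trametinib (adjusted p = 0.0101), by 0.59 and no longer passing without vehicle replicate 2, and by 0.40 without trametinib replicate 1. Without trametinib replicate 2 the change was -0.90. NRXN2 ranged from 0 in trametinib replicate 2 to 50.2 in combination replicate 2 and NLGN3 from 18.7 to 55.0, and neither passed. The 1 tested glutamate receptor, GRIN2D, ranged from 181 to 363 and passed in none.

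NOVA1 and NOVA2 are RNA-binding proteins that direct alternative splicing of synaptic transcripts in neurons. NOVA2 was at 10.2 and 3.17 with vehicle, 11.0 and 16.1 with trametinib, 146 and 145 with panobinostat alone, and 143 and 163 with both drugs. The libraries with panobinostat formed a tight group far above the rest, 21.7 and 22.8 times the vehicle mean, or 4.42 ± 0.55 and 4.49 ± 0.55 on the log2 scale (limma adjusted p = 0.000423 and 0.000123). These sizes depend on the low vehicle values: without vehicle replicate 1 they were 5.14 and 5.20, and without vehicle replicate 2 they were 3.71 and 3.77. NOVA1 was at 77.0 and 82.3 with vehicle, 182 and 206 with trametinib, 225 and 275 under panobinostat, and 289 and 335 with both. It rose with each treatment, by 1.27 ± 0.20, 1.63 ± 0.20 and 1.95 ± 0.20 (adjusted p = 0.000640, 0.000417 and 4.23e-05).

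Adding panobinostat to trametinib, read as the combination against trametinib, gave 10 higher and 1 lower of the 26 tested genes, where 32.8% of all genes were called (17.6% higher, 15.2% lower). The median change was 0.88 against 0.06 for all genes. PCLO (0.92 ± 0.09, limma adjusted p = 0.000109), NLGN1 (1.69 ± 0.20, adjusted p = 0.000245) and NOVA2 (3.42 ± 0.55, adjusted p = 0.00144) rose. SLC17A7 (2.99 ± 0.51, adjusted p = 0.00206) and NLGN2 (0.97 ± 0.17, adjusted p = 0.00225) rose too. These 5 calls passed under every alternative run.

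The other 5 that rose were less stable. RIMS1 was at 0 in both trametinib libraries, so the combination mean is given as 6.41 times a floor of 3 reads per library, without its own counting error. The call (limma adjusted p = 0.0196) did not pass without panobinostat replicate 2 or either combination library. SYN1 (4.38 ± 1.40, adjusted p = 0.0391) became 1.81 without trametinib replicate 2 and 6.95 without trametinib replicate 1. It did not pass with edgeR (2.80) or DESeq2 (2.84) on recovered reads, with a pseudocount of 0.5 (4.88), without the filter (4.38), or without vehicle replicate 2 or any 1 of the panobinostat or combination libraries (4.28 to 4.48). BSN (2.10 ± 0.55, adjusted p = 0.0172) did not pass without combination replicate 2 (1.63). RAB3B (0.88 ± 0.20, adjusted p = 0.00985) did not pass without either combination library (0.86 and 0.90), and NOVA1 (0.68 ± 0.20, adjusted p = 0.0290) did not without either vehicle or either combination library (0.58 to 0.79). RAB3A fell (-0.83 ± 0.18, adjusted p = 0.00702), by 0.52 without trametinib replicate 2, and did not pass without combination replicate 1 (-0.77).

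Adding trametinib to panobinostat gave 1 call, where 24.0% of all genes were called. RAB3A fell by 1.14 ± 0.18 (limma adjusted p = 0.00158), from 754 and 740.1 with panobinostat to 324 and 353 with both drugs. The other 25 did not pass, and the median change was 0.11 against 0.01 for all genes. For REST the difference was 0.33 ± 0.15 (adjusted p = 0.165), with a 95% interval from -0.02 to 0.67.

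The interaction asks whether panobinostat changed a gene by a different amount when trametinib was present, on the log2 scale. It passed for 7 of the 26 genes, 2 higher and 5 lower, where 19.3% of all genes were called (10.2% higher, 9.04% lower). NLGN2 (1.06 ± 0.24, limma adjusted p = 0.0141) and PCLO (0.65 ± 0.13, adjusted p = 0.00875) were positive: panobinostat raised both from the low trametinib level and did not pass for them alone. VAMP2 (-0.91 ± 0.18, adjusted p = 0.00714), RAB3B (-1.53 ± 0.29, adjusted p = 0.00593), SLC17A7 (-2.45 ± 0.73, adjusted p = 0.0432) and NOVA1 (-0.95 ± 0.29, adjusted p = 0.0464) were negative. Each of these 4 rose with either drug alone and by less than the sum of the 2 log2 changes with both. RAB3A was negative too (-0.98 ± 0.25, adjusted p = 0.0251), at its lowest with both drugs. VAMP2, RAB3B and PCLO passed under every alternative. NLGN2 did not pass without vehicle replicate 2, either panobinostat library or combination replicate 2 (0.91 to 1.06), RAB3A without any 1 of the vehicle, panobinostat or combination libraries (-1.04 to -0.92), and NOVA1 without the same libraries (-1.09 to -0.81) or without the filter. SLC17A7 did not pass with a pseudocount of 5 (-1.61), without the filter (-2.45), or without vehicle replicate 2 (-1.73) or any 1 of the panobinostat or combination libraries (-2.57 to -2.33).

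Lists of other genes of the same pathways are given by their counts, to be read against the share of all genes called: 30.5% with panobinostat (15.0% higher, 15.6% lower), 51.0% with trametinib (23.7% and 27.4%) and 50.0% with the combination (24.5% and 25.5%). REST's other corepressors, 19 genes all tested, gave 2 higher, 3 lower and 14 not passing with panobinostat, 6, 5 and 8 with trametinib, and 5, 7 and 7 with the combination, none far from those shares. With panobinostat the smallest adjusted p-values were those of PHF21A, the histone reader of the RCOR1 complex (0.93 ± 0.13, limma adjusted p = 0.000801), EHMT2, a histone H3 lysine methyltransferase (-0.96 ± 0.14, adjusted p = 0.000988), and the phosphatase CTDSP2 (0.49 ± 0.08, adjusted p = 0.00188). Of 9 tested genes that act on REST stability or splicing, none passed with panobinostat, 1 was higher and 2 lower with trametinib, and 3 were higher and 2 lower with the combination. SRRM4, which promotes a truncated REST isoform in neurons, was at 0 in 7 of 8 libraries.

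Other neuronal genes regulated through RE1 rose with panobinostat in 10 of 20 tested and fell in none, where 15.0% of all genes rose, and their median was 1.48 against 0.00 for all genes. With trametinib 7 were higher and 4 lower (median 0.13), and with the combination 13 were higher and 2 lower (median 1.21). SCG2, CHGB, CHRNB2 and L1CAM of this list had vehicle means under 10 and reached the filter through their treated libraries. A difference in them was therefore partly built in. L1CAM, a neuronal adhesion molecule, was at 10.2 and 9.50 with vehicle and 244 and 274 with panobinostat, a rise of 4.58 ± 0.35 (limma adjusted p = 3.03e-05). VGF, a secreted neuropeptide precursor, was at 2523 and 2534 with vehicle, 147 and 196 with trametinib, 8093 and 8185 with panobinostat alone, and 746 and 946 with both. It rose by 1.69 ± 0.14 with panobinostat (adjusted p = 4.68e-05) and fell by 1.59 ± 0.14 with the combination (adjusted p = 1.66e-05). Genes whose promoter window matched at least 16 RE1 letters numbered 17 (0.0623% of all), of which 4 were tested. With panobinostat 3 of these were higher and none lower, with the combination 2 and 1, and with trametinib 1 and 1. SYN1, which reached the filter through its treated libraries, is 1 of the 3.

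Other vesicle and release genes gave 10 higher, 1 lower and 6 not passing of 17 with panobinostat (median 0.90), 8, 3 and 6 with trametinib (median -0.08), and 9, 1 and 7 with the combination (median 0.75). With trametinib and the combination the total called was not far from that of all genes, but more were higher than lower. Among all genes 23.7% were higher and 27.4% lower with trametinib, and 24.5% and 25.5% with the combination. The lower one with panobinostat was RIMS2, a paralog of RIMS1, which went from 829 and 836 to 352 and 400.3 (-1.15 ± 0.10, limma adjusted p = 4.92e-05). SYT7, a slow calcium sensor, rose by 1.78 ± 0.19 (adjusted p = 0.000172). Other postsynaptic and adhesion genes gave 4 higher, 1 lower and 12 not passing of 17 with panobinostat (median 0.45), where the kainate receptor gene GRIK2 rose from 27.7 and 34.8 to 234 and 211 (2.80 ± 0.27, adjusted p = 0.000111). They gave 8 higher and 3 lower with trametinib and 8 higher and 1 lower with the combination.

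Of 8 tested neuronal splicing factors, 2 rose and 2 fell with panobinostat, 1 rose and 3 fell with trametinib, and 2 rose and 1 fell with the combination. The trametinib and combination counts are near or below the shares of all genes. PTBP1, a repressor of neuronal exons, fell from 5405 and 5754 with vehicle to 2276 and 2188 with panobinostat (-1.32 ± 0.09, limma adjusted p = 1.56e-05). Its values were 1747 and 2033 with trametinib and 1403 and 1515 with both drugs. Ubiquitous SNARE and fusion genes, which serve traffic in all cells, gave no higher, 1 lower and 19 not passing of 20 with panobinostat, with a median of -0.07, where 15.0% of all genes were higher and 15.6% lower. The 1 that fell was the ATPase NSF (-0.45 ± 0.12, adjusted p = 0.0237). With trametinib 7 of these 20 were higher and 2 lower, and with the combination 4 and 2.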

How the data were processed

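The authors deposited 1 table of normalised signal values, with genes in rows and the 8 libraries in columns. TopHat2 2.0.13, Cufflinks 2.2.1 and DESeq2 are named in the submitters' processing notes, with build hs37d5 for 4 libraries (vehicle and trametinib). No build is named for the other 4, which are all the libraries with panobinostat. Any difference in handling between these sets cannot be told apart from panobinostat. The annotation, the DESeq2 version and the use of strand are not given in the sources used here. Total RNA was used with a NuGEN Ovation kit for FFPE material, per the labels' protocols. Within a library, 100% of the deposited signal values were whole multiples of 1 step (tolerance 1e-06), so the authors' values were read counts divided by a size factor.

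Here, log2(value + 1) was fitted with limma 3.58.1 (R 4.3.3; intensity trend, no covariates) over all 8 libraries, with 4 residual and 5.32 prior degrees of freedom, for 13320 genes with a mean of at least 10. The threshold was an adjusted p of 0.05 (Benjamini-Hochberg). edgeR 4.0.16 and DESeq2 1.42.0 on recovered reads, other pseudocounts and filters, a replicate block and leaving out each library were alternatives. The fit was tested on simulated data. The listed genes, pathway lists and tests were chosen with earlier results of these data known. All tested genes that passed, the near-0 genes, REST and RCOR1 were described with values, and up to 3 genes per pathway list, those with the smallest adjusted p. Some genes that this rule names are not reported here. Levels were not compared between genes, since the values are not per length. Promoters were from RefSeq windows, and gene overlaps from GENCODE 29.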

Additional observations from a re-analysis of the deposited data

Results flagged for a closer look

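The limma interaction term, on the log2 scale, passed for 7 of the 26 tested genes, where 19.3% of all genes were called. It asks whether the effect of panobinostat differed between cells with and without trametinib. Only VAMP2, RAB3B and PCLO passed under every alternative. The effect with trametinib minus that without was -0.91 for VAMP2, -0.98 for RAB3A, -1.53 for RAB3B, -2.45 for SLC17A7 and -0.95 for NOVA1, and 0.65 for PCLO and 1.06 for NLGN2.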

How the results depend on the processing

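Of the 55 calls made over the 26 tested genes and 6 comparisons, 31 passed under every alternative, 24 were lost under at least 1, and 0 reversed direction. With a mean of at least 30 as the filter, SYT5, SYT11, RIMS1, CAMK2A and NRXN2 were not tested and have no value. Of these, RIMS1 and SYT11 had calls in the main fit. With DESeq2 on recovered reads, 3 genes passed for the combination against panobinostat in place of 1, and the cause was not tested. Leaving out 1 library at a time, in which the lone library of a group is assumed to vary like the others, gave 7 to 19 calls for trametinib against vehicle (11 with all libraries), 6 to 16 for panobinostat (11), 9 to 22 for the combination (14), 6 to 18 for the combination against trametinib (11), 1 to 6 for the combination against panobinostat (1) and 3 to 16 for the interaction (7). The highest of these counts came without a trametinib library. The share of all genes called rose in the same fits, so the higher counts are no result about these genes. Same-numbered libraries did not deviate together across genes (correlations of -0.023 to 0.022). With 2 libraries per group this cannot decide whether the numbers pair the libraries. With the replicate block, 10, 10, 13, 11, 1 and 7 genes passed in the order above. Depth limits the near-0 genes, where 1 read is worth up to 1.52.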
